A study of Homo sapiens with 6 samples.

Results

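Bidirectional coding promoters are the short stretches of DNA that separate a pair of protein-coding genes pointing away from each other. Here a pair was taken from the GENCODE gene records on hg19 wherever protein-coding genes on opposite strands diverged with their 5′ ends at most 1 kb apart, and its span ran from one 5′ end to the other plus 500 bp on each side. The rule found 883 pairs with 1703 distinct genes, and 661 of them held at least 1 SMARCA4 peak in the span, which is 74.9% of the pairs with a 95% Wilson interval of 71.9 to 77.6%. The members are the 757 peaks in those spans, out of 28265 peaks in all (2.68%). For the background, 40.0% of all 20163 coding gene 5′ ends had a peak within 500 bp, and so did 54.5% of the 6474 CpG-rich coding 5′ ends with no divergent neighbour.

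The study mapped where SMARCA4 sits on chromatin in K562 cells, a human chronic myelogenous leukaemia line, and set it beside earlier mapped sites of DNA G-quadruplexes (G4s), folds in which guanine-rich DNA stacks upon itself. There were 3 ChIP libraries made with a SMARCA4 antibody and 3 input libraries, all from K562 cells with no treatment named in the labels. A description label of the ChIP samples speaks of G4 ChIP-seq, while their titles and antibody field name SMARCA4, which is followed here. Crosslinking used disuccinimidyl glutarate (2 mM, 30 min) followed by formaldehyde (1%, 10 min), and shearing left fragments of 150 to 400 bp. The series text calls the replicates technical and names 1 input, and the study calls them biological. The deposited list pools them into regions with a start and an end and no height or score, so it carries no read count behind a region, no SD over replicates can be given from it, and the intervals here cover counting error over regions only.

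SMARCA4, also called BRG1, is an ATPase that drives SWI/SNF complexes, which slide or evict nucleosomes at promoters and enhancers. Divergent gene pairs are common in the human genome, and many of them code for housekeeping proteins of DNA repair, mitochondria and RNA handling. Both genes of such a pair share a nucleosome-poor, usually CpG-rich region, in which a transcription start lies near each edge and the factor sites in between can serve both directions.

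The pairs were close together, with a median of 131 bp between the 5′ ends (quartiles 69 and 247 bp). Sequences between the 5′ ends are shown for some pairs at most 300 bp apart from 3 sets that the results below turn on. They are read on the plus strand of hg19, so the first base is the 5′ end of the minus-strand gene, named first, and the last base is the 5′ end of the plus-strand gene. Capitals mark matches on either strand to 10 short motifs or to a G4 motif. The motifs were CCGGAAG for ETS factors, GCGCATGCG for NRF1, GGGCGG for SP/KLF factors, CCAATCA for NF-Y, GATGGCGG for YY1, TGACGTCA for the cyclic AMP response element (CRE), TTCCCGCC for E2F, ACTACAA for ZNF143, AGATAA for the blood factors of the GATA family and TATAAA for the TATA box. A G4 motif needed 3 or more guanines in each of 4 runs, separated by loops of 1 to 7 bases. SP/KLF matches can share bases with E2F, YY1 and G4 matches. The textbook pairs come first: PPAT-PAICS (chr4:57301781-57301907), both enzymes of purine synthesis; SARS2-MRPS12 (chr19:39421403-39421584), a mitochondrial seryl-tRNA synthetase and a mitochondrial ribosomal protein; and SIRT3-PSMD13 (chr11:236931-236966), a mitochondrial deacetylase and a proteasome subunit.
PPAT-PAICS: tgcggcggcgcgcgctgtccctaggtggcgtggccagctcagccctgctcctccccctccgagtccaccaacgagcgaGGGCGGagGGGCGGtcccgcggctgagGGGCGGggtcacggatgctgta
SARS2-MRPS12: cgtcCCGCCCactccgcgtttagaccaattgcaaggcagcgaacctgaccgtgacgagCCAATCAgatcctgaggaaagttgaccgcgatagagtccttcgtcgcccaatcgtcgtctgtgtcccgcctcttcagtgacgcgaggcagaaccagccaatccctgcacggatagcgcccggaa
SIRT3-PSMD13: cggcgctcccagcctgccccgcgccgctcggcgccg

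The second set holds pairs under the widest member peaks. H2BC11-H2AC11 (chr6:27100574-27100822), H2AC17-H2BC17 (chr6:27860963-27861203) and H2BC21-H2AC20 (chr1:149858232-149858468) code for replication-dependent core histones, which are made in S phase. GTPBP2-MAD2L1BP (chr6:43597001-43597277) joins a GTP-binding protein and a regulator of the spindle checkpoint.
H2BC11-H2AC11: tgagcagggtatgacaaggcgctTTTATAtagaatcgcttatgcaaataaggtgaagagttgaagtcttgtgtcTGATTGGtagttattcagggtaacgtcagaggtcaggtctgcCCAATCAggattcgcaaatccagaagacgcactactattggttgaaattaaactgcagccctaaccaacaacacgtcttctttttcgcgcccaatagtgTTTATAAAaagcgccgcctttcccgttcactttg
H2AC17-H2BC17: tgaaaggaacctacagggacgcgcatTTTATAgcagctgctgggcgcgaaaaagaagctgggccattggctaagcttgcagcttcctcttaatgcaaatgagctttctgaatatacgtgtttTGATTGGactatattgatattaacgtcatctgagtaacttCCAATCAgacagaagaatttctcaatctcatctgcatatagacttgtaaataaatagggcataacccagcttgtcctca
H2BC21-H2AC20: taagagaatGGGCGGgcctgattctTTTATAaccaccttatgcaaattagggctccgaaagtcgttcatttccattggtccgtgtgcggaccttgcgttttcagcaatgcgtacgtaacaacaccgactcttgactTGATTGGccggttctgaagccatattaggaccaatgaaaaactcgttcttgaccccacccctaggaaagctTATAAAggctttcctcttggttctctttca
GTPBP2-MAD2L1BP: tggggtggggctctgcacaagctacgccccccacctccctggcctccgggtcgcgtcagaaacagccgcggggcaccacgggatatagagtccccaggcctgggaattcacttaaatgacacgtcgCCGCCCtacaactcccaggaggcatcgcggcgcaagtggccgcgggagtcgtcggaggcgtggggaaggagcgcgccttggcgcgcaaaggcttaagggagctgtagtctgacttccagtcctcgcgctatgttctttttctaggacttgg

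The third set holds CpG-rich pairs of high GC content without a peak. THAP4-ATG4B (chr2:242576573-242576628) includes an autophagy protease, and NKAIN4-ARFGAP1 (chr20:61904046-61904137) includes a regulator of Golgi transport.
THAP4-ATG4B: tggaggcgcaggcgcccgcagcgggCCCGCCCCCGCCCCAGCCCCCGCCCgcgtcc
NKAIN4-ARFGAP1: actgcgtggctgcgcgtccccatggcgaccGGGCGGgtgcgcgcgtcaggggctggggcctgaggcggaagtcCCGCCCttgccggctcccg

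These sequences differ in base composition, also within the set under the widest peaks. The GC content between the 5′ ends was 43.8% in H2BC11-H2AC11, 41.1% in H2AC17-H2BC17 and 46.0% in H2BC21-H2AC20, each with TATA and NF-Y matches. In GTPBP2-MAD2L1BP of the same set it was 63.5%, with an SP/KLF match and no TATA or NF-Y match. It was 89.3% in THAP4-ATG4B, which held a G4 match with 3 overlapping SP/KLF matches and had no peak. SIRT3-PSMD13 had 88.9% GC over 36 bases, no match to any of the motifs within those bases, and a peak across both 5′ ends. Within 500 bp on each side of its midpoint there were ETS, SP/KLF and YY1 matches.

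Whether SMARCA4 peaks lie at divergent pairs more often than at other CpG-rich coding promoters was asked with windows of equal length, 500 bp on each side of the midpoint of a pair or of a single 5′ end. CpG-rich meant at least 55% GC and an observed/expected CpG ratio of at least 0.6 in that window, and one-way meant that no gene record of any type on the opposite strand had its 5′ end within 1 kb. A peak was present in 566 of 713 CpG-rich pair windows, 79.4% (95% interval 76.3 to 82.2%), and in 3530 of 6474 one-way windows, 54.5% (53.3 to 55.7%). With the one-way promoters weighted to the GC content of the pairs their share was 55.2%. The odds of a peak were 3.13 times higher at pairs within classes of 2 percentage points of GC (Mantel-Haenszel odds ratio, 95% interval 2.60 to 3.78). The comparison is per window and not per start, since a pair window holds the 5′ ends of 2 coding genes. A one-way window is centred on 1 such end. How far the number of starts bears on the difference was not tested.

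The difference was present along most of the GC range. Between 55 and 60% GC the shares were 80.7% of 197 pairs and 56.8% of 1348 one-way promoters, and between 70 and 75% GC they were 84.1% of 82 pairs and 53.8% of 1125 one-way promoters. At 75 to 80% GC, with 27 pairs, the share was 66.7% with an interval of 47.8 to 81.4% that takes in the 50.3% of the one-way promoters. The 170 pairs outside the CpG-rich class had a peak in 92 windows, 54.1% (46.6 to 61.4%), against 13.3% of 8343 one-way promoters of the same kind, and within GC classes the odds ratio there was 5.46 (3.96 to 7.51), a split that was added after the values were seen.

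**Figure D1:**
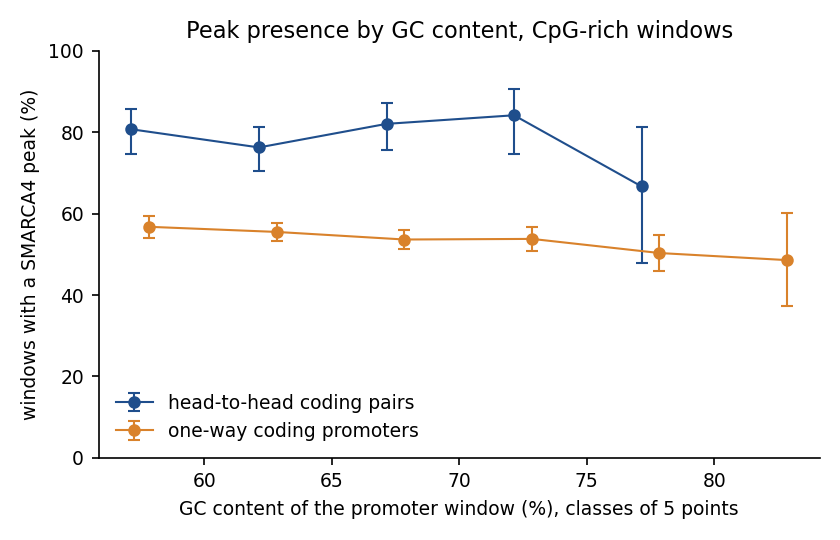
Share of CpG-rich promoter windows with a SMARCA4 peak (y axis, %) by GC content of the window (x axis, classes of 5 percentage points) for head-to-head coding pairs and one-way coding promoters, with 95% Wilson intervals. The pairs lie above the one-way promoters in each class that holds both, with overlapping intervals in the class of 75 to 80% GC.

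Coding promoters with a divergent non-coding gene within 1 kb, a comparison added after the values were seen, lay between both groups. A peak was present in 1303 of 1978 of their CpG-rich windows, 65.9% (63.8 to 67.9%), and the odds at coding pairs were 1.96 times higher within GC classes (95% interval 1.59 to 2.41). Peak coverage in all 3 groups was highest close to the centre of the window. At its highest point 64.9% of the CpG-rich pair windows were covered, 53.9% of those with a non-coding partner and 43.6% of the one-way windows.

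**Figure D2:**
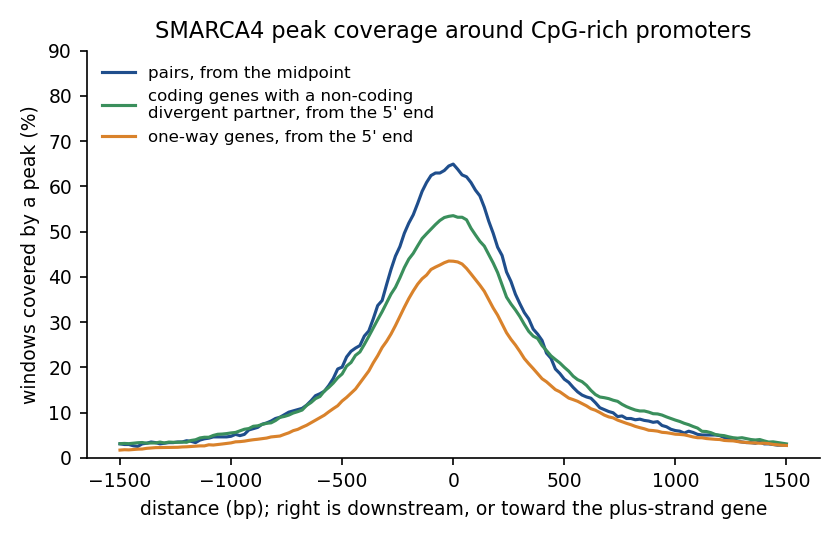
Share of CpG-rich promoter windows covered by a peak (y axis, %) by distance in bp (x axis) from the midpoint of a pair or from a single 5′ end, where the right side is toward the plus-strand gene of a pair or downstream of a single gene. At the centre the curve of the pairs is the highest, and the curve of promoters with a non-coding partner lies between the others. Farther out on the right side the curve of promoters with a non-coding partner is the highest. On the far left side it runs close to that of the pairs.

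A pair has a start at each edge of its promoter, which raises the question whether its peaks are wider; no such difference was detectable. The widest peak reached 1 kb at 70 of 566 occupied CpG-rich pairs, 12.4% (9.91 to 15.3%), and at 502 of 3530 occupied one-way promoters, 14.2% (13.1 to 15.4%). The odds ratio within GC classes was 0.906 with a 95% interval of 0.691 to 1.19. The median widest peak was 508 bp at pairs (95% interval 486 to 540) and 528.5 bp at one-way promoters (516 to 541), and peaks covered 54.0% ± 23.8 (SD over 566 windows) and 53.1% ± 24.4 (SD over 3530 windows) of the bases. Against promoters with a non-coding partner, of which 18.8% of 1303 had a peak of at least 1 kb, wide peaks were less frequent at coding pairs (odds ratio 0.644, 0.482 to 0.859).

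Most occupied pairs held a single peak. In the full spans, 524 pairs had 1 peak, 122 had 2 and 15 had at least 3, up to 4 at TCP1-MRPL18, which codes for a chaperonin subunit and a mitochondrial ribosomal protein. The member peaks had a median width of 460 bp (quartiles 282 and 699 bp), and all 28265 peaks had one of 368 bp (237 and 586 bp). Of the 757 members, 55 lay at more than 1 pair, because 62 genes occur in more than 1 pair.

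A single peak often spanned both start sites. The widest peak covered both 5′ ends at 417 of 661 occupied pairs, 63.1% (59.3 to 66.7%). Of the 757 members, 397 (52.4%, 48.9 to 56.0%) covered both 5′ ends, 160 (21.1%) covered 1 of them, 190 (25.1%) lay outside them and overlapped a flank, and 10 (1.32%) lay wholly between them. At occupied CpG-rich pairs a peak covered the minus-strand 5′ end in 79.5% and the plus-strand 5′ end in 78.1% of 566 windows, and a peak covered the single 5′ end in 79.7% of 3530 occupied one-way windows. Among windows that held a peak, the 5′ end of either gene of a pair thus lay under it about as often as that of a one-way gene, a description with no test. At 132 pairs (23.3%) peaks covered exactly 1 of the 5′ ends, and at 54 (9.54%) neither.

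The centre of the widest peak lay a median of 117.5 bp from the midpoint of the pair (quartiles 57.5 and 251.5 bp). It was on the side of the minus-strand gene in 357 of 661 pairs (54.0%, 50.2 to 57.8%) and on the side of the plus-strand gene in 304. Neither strand has a meaning of its own here, and this was a description with no test.

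The distance between the 5′ ends had no detectable relation to whether a peak was present. The share was 77.7% of 278 CpG-rich pairs at up to 100 bp (72.4 to 82.2%), 79.9% of 308 from there up to 300 bp (75.04 to 83.97%) and 81.9% of 127 beyond 300 bp (74.3 to 87.6%). The odds ratio of the longest against the shortest distances was 1.29 (95% interval 0.748 to 2.23). How the peak lay moved with distance, which is in part arithmetic, since 1 peak must be longer to reach both ends of a wider gap. A single peak covered both 5′ ends at 80.6% of occupied pairs in the shortest class, 69.1% in the middle class and 29.8% in the longest. Peaks of at least 1 kb were present at 8.33% of 216, 14.6% of 246 and 15.4% of 104 occupied pairs in the same order, with an odds ratio of 2.137 for the longest against the shortest class whose interval began at 1.00 (to 4.55); this was computed after the values were seen.

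**Figure D3:**
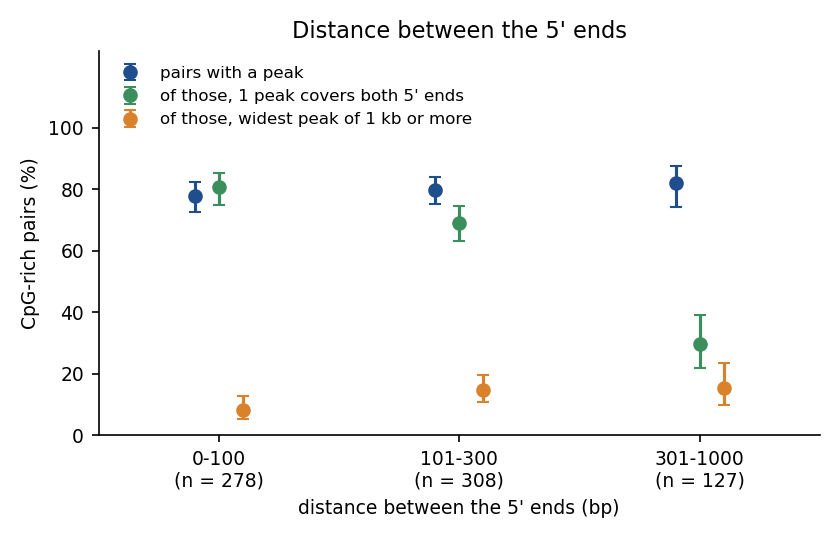
Share of CpG-rich pairs (y axis, %) in 3 classes of distance between the 5′ ends (x axis, bp) that had a peak and, of those with a peak, the shares with 1 peak over both 5′ ends and with a widest peak of 1 kb or more, with 95% Wilson intervals. Peak presence is level across the classes while joint coverage falls from 80.6 to 29.8%.

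At the 1 kb limit, PSMB1-TBP, which codes for a proteasome subunit and the TATA-binding protein, was the pair just inside with 995 bp between the 5′ ends, and its span held 3 peaks, the widest of 625 bp (chr6:170861996-170862620). Just outside was TXNDC12-BTF3L4 with 1008 bp, whose equivalent span held 1 peak of 1622 bp (chr1:52520731-52522352). Among the 222 pairs without a peak in the span, the nearest peak lay a median of 39584 bp from its edge, and the closest, at TAX1BP3-EMC6, 62 bp.

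The peak list does not say whether DNA was folded into a G4, so only the sequence motif could be counted. G4 motifs were less frequent in the members than in peaks at one-way promoters. Of the 757 members 267 held a G4 motif, 35.3% (31.9 to 38.7%), and of 3932 peaks at CpG-rich one-way promoters 2009 did, 51.1% (49.5 to 52.7%). One-way peaks weighted to the GC content of the members had a share of 44.1%. Within GC classes the odds ratio was 0.656 (95% interval 0.553 to 0.778). The members here came from the full spans of all pairs, CpG-rich or not, unlike the one-way side. A count with members at CpG-rich pairs only was added after the values were seen. Of those 652 members 38.3% held the motif, with an odds ratio of 0.688 (0.576 to 0.821). The whole windows, with or without a peak, were also compared in a count added after the values were seen: 67.6% of 713 pair windows and 76.4% of 6474 one-way windows held a G4 motif, with an odds ratio of 0.781 within GC classes, whose interval was 0.652 to 0.934 at 95% and 0.604 to 1.01 at 99.5%, the level used for the short motifs.

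Whether a G4 motif and a peak go together within pairs was also looked at after the values were seen. A peak was present in 78.6% of 482 CpG-rich pair windows with the motif and in 81.0% of 231 without it. The odds ratio was 0.828 and its interval at 99.5% ran from 0.455 to 1.51. At one-way promoters, with more windows, it was 0.820 (0.685 to 0.982), and the pair value divided by the one-way value was 1.01 (0.540 to 1.88).

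The pairs differed from one-way promoters in the short motifs they carry. The ETS motif counted, CCGGAAG, holds the GGAA core bound by a large family of factors. Its matches were present in 41.9% of 713 CpG-rich pair windows and 25.1% of 6474 one-way windows. The odds ratio within GC classes was 2.02 (1.604 to 2.538). NRF1, which activates nuclear genes for mitochondrial proteins, had matches in 9.54 and 4.49% (odds ratio 2.05, 1.37 to 3.05), and ZNF143, a zinc finger activator, in 12.1 and 6.33% (1.79, 1.25 to 2.56). These intervals are at 99.5%, a Bonferroni widening over the 10 motifs.

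YY1 and NF-Y matches were also more frequent at pairs, with odds ratios of 1.46 (1.04 to 2.06) and 1.44 (1.06 to 1.95). With windows of 250 bp on each side both intervals took in 1, at odds ratios of 1.35 and 1.26. For the other 5 motifs the interval held 1: CRE 1.34, E2F 1.24, SP/KLF 0.959, TATA 0.823 and GATA 0.795. SP/KLF matches were near saturation, in 96.2% of pair windows and 97.0% of one-way windows. GATA factors drive red cell genes, which K562 cells express in part, and their motif had matches in 14.2% of pair windows and 14.98% of one-way windows.

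Within the pairs, the interval for a peak with against without a motif held 1 for 9 of the 10 motifs. In the one-way windows, which are far more numerous, it lay above 1 for 6 of them, ETS, NRF1, SP/KLF, YY1, CRE and ZNF143. The intervals in pairs are wide. For NRF1 and CRE the odds ratios of 1.21 (0.471 to 3.08) and 2.03 (0.516 to 7.98) pointed the same way as the 1.75 and 1.84 of one-way promoters. For ZNF143 the value was 1.06 in pairs (0.465 to 2.40) and 1.73 in one-way promoters. For YY1, given below, and for SP/KLF the odds ratio in pairs pointed the other way. That of SP/KLF was 0.437 (0.0752 to 2.54), with 27 pair windows lacking a match, and 2.17 in one-way promoters. A peak was present in 80.6% of 299 pair windows with an ETS match and 78.5% of 414 without (odds ratio 1.14, 99.5% interval 0.672 to 1.94). At one-way promoters the shares were 66.9% of 1626 and 50.4% of 4848, with an odds ratio of 1.97 (1.67 to 2.34). The odds ratio in pairs divided by that in one-way promoters, a comparison added after the values were seen, was 0.578 for ETS with an interval of 0.331 to 1.01, which holds 1. With GC classes of 5 percentage points it was 0.565 with an interval of 0.323 to 0.990, which does not, so that whether the groups differ depends on the width of the classes.

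For YY1, a zinc finger factor common at promoters, and for NF-Y the interval of that quotient lay below 1. Pair windows with a match had a peak in 72.7% of 88 and those without in 80.3% of 625, while one-way windows had one in 68.0% of 566 and 53.2% of 5908. The odds ratio was 0.660 in pairs (0.310 to 1.40) and 1.85 in one-way promoters (1.42 to 2.40), and the quotient for YY1 was 0.357 (0.161 to 0.794). NF-Y was the one motif whose interval within pairs lay below 1, with a peak in 70.5% of 122 pairs that carry it and 81.2% of 591 that do not (odds ratio 0.511, 0.265 to 0.986), a call that sat at the edge of its interval and was lost under 4 of 5 alternatives. Its quotient was 0.480 (0.240 to 0.960), and its interval took in 1 with peaks of at least 200 bp (0.575, 0.295 to 1.12) or with named genes only (0.4999, 0.246 to 1.01).

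**Figure D4:**
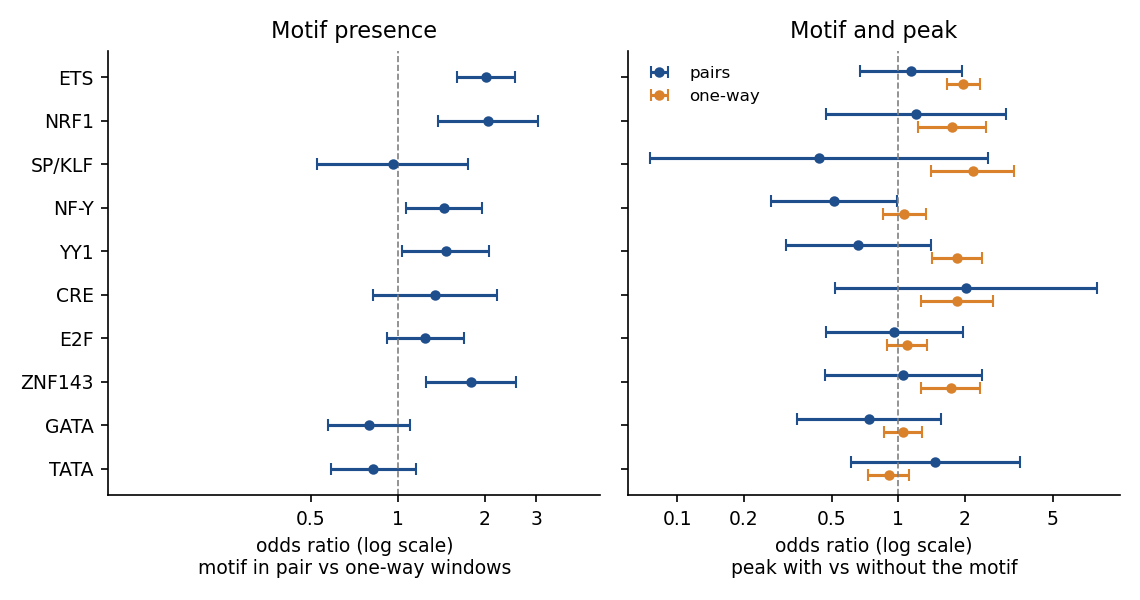
Odds ratios (log scale) within GC classes for 10 short motifs, with 99.5% intervals: on the left the presence of the motif in CpG-rich pair windows against one-way windows, on the right the presence of a peak in windows with against without the motif, in pairs and in one-way promoters. ETS, NRF1 and ZNF143 lie farthest to the right on the left side, while on the right side the intervals of the pairs hold 1 for each motif but NF-Y.

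Gene groups were taken from patterns of gene symbols, such as RPL and RPS names for cytosolic ribosomal proteins or PSM names for the proteasome, with a list of symbols for DNA repair and replication. They are not complete, and each count, width range and extreme holds within its list only. Of the 5 pairs with the widest member peaks, 4 were pairs of replication-dependent histone genes, which package newly copied DNA. Of 12 pairs with such a gene, 10 had a peak (83.3%, 55.2 to 95.3%), beside 74.9% of all pairs, and the median of their widest peaks was 2368 bp, beside 507 bp over all 661 occupied pairs. The widest member of all, 3596 bp, lay over H2BC11-H2AC11 (chr6:27099313-27102908). A 3104 bp peak covered the 5′ ends of H2AC17, H2BC17 and the neighbouring H3C12 (chr6:27860044-27863147). That single peak counts for 2 of the histone pairs, H2AC17-H2BC17 and H3C12-H2BC17, among the widest and in the median. The narrowest in the group was 640 bp at H2BC13-H2AC13. H2AC1-H2BC1, whose products are variants of the testis, and H2AC14-H2BC14 had no peak. Of these 12 pairs 7 were CpG-rich.

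The shares in the gene groups that follow are to be read beside the 74.9% of all pairs, which lies within the interval of each group but the collagens, which have 2 pairs. All 11 listed pairs with a cytosolic ribosomal protein gene had a peak (100%, 74.1 to 100%), with a median width of 486 bp, from 440 bp at RPS16-SUPT5H, which also codes for a transcription elongation factor, to 1099 bp at PIDD1-RPLP2. The patterns missed FAU-MRPL49, counted below with the mitochondrial genes, and RPL36AL-MGAT2, whose widest peaks were narrower at 252 and 353 bp. Among 18 listed pairs with a mitochondrial ribosomal protein gene 12 had a peak (66.7%, 43.8 to 83.7%) and the median width was 379 bp. APBA3-MRPL54 had the widest of these, 896 bp, and MRPL21-IGHMBP2 the narrowest, 208 bp. Among the listed pairs of this group without a peak, MRPL47 and MRPL32 each occurred more than once. Of the 39 listed pairs with tRNA synthetase or RNA processing genes 34 had a peak (87.2%, 73.3 to 94.4%), from 275 bp at INTS11-CPTP to 1184 bp at ORC1-PRPF38A, which joins the replication origin subunit ORC1 to a splicing factor. CDC26-PRPF4 was one of the 5 without a peak.

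Pairs with genes of mitochondrial respiration and import had a peak in 25 of 37 cases (67.6%, 51.5 to 80.4%), with a median of 407 bp. CPSF7-SDHAF2, where SDHAF2 helps assemble succinate dehydrogenase, had the widest, 860 bp, and COA3-CNTD1, where COA3 serves the assembly of cytochrome c oxidase, the narrowest, 230 bp. AGAP8-TIMM23B had none. 

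**Figure D5:**
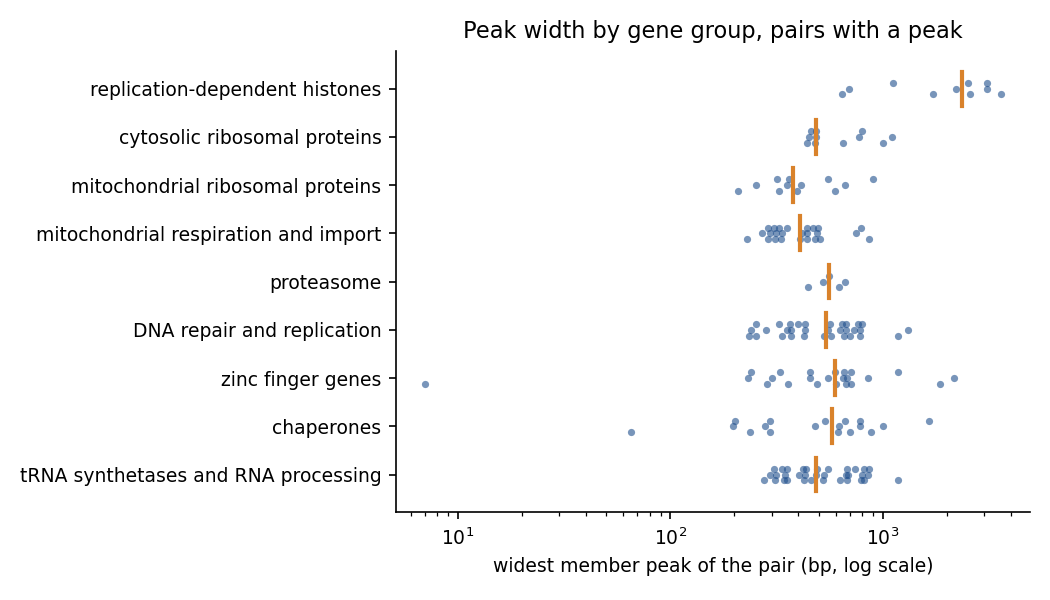
Width of the widest member peak (x axis, bp, log scale) of each occupied pair in 9 gene groups, with 1 point per pair and a bar at the median of the group. Histone pairs have a median of 2368 bp, and the medians of the other groups lie between 379 and 593 bp.

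Of 44 listed pairs with a gene of DNA repair or replication 32 had a peak (72.7%, 58.2 to 83.7%), with a median of 538.5 bp. UFD1-CDC45, where CDC45 is part of the replicative helicase, had the widest, 1307 bp, PURG-WRN, where WRN is a RecQ helicase, the narrowest, 235 bp, and C12orf4-RAD51AP1, where RAD51AP1 acts in homologous recombination, had none. Chaperone pairs had a peak in 18 of 20 cases (interval 69.9 to 97.2%). The heat shock pair HSPA1L-HSPA1A had the widest of these, 1643 bp, PRADC1-CCT7, which codes for a chaperonin subunit, had only slivers of at most 65 bp, and DCDC1-DNAJC24 had none.

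Among proteasome pairs 5 of 6 had a peak (83.3%, 43.7 to 97.0%), from 446 bp at PSMA1-PDE3B to 665 bp at PSMA7-SS18L1, and PSMA2-MRPL32 had none. Zinc finger pairs had one in 23 of 33 cases (69.7%, 52.7 to 82.6%). The widest in that group was 2161 bp at ZBTB4-POLR2A, where POLR2A is the largest subunit of RNA polymerase II, the narrowest a 7 bp region at ZNF75D-ZNF449, and LYAR-ZBTB49 had none. Neither collagen pair had a peak, COL4A4-COL4A3 among them, whose products form basement membranes of kidney and lung. A pair can count in more than 1 group, and with 2 to 44 pairs a group the counts were a description with no test.

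The textbook pairs that the rule found all had a peak, beside 74.9% of all 883 pairs. They are few, and this was a description with no test. At PPAT-PAICS the span held 3, the widest of 1095 bp over both 5′ ends (chr4:57301639-57302733). NPAT-ATM, which joins a coactivator of histone genes to the kinase of the DNA damage response, had 406 bp between the 5′ ends and a 728 bp peak over both (chr11:108093208-108093935). At SIRT3-PSMD13 a 559 bp peak covered both (chr11:236479-237037). At SARS2-MRPS12 the 554 bp peak (chr19:39420843-39421396) ended just short of the SARS2 5′ end at position 39421403, on the SARS2 side, and covered neither. PRKDC-MCM4, which codes for a DNA repair kinase and a helicase subunit, had only 7 bp between its 5′ ends and held 2 peaks. The wider, of 780 bp (chr8:48873155-48873934), lay outside both 5′ ends on the MCM4 side. The other, of 596 bp (chr8:48872534-48873129), covered both.

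Some classical pairs fall outside the rule because their gene records overlap. Those of SURF1-SURF2 overlapped by 126 bp, and those of HSPD1-HSPE1, TAP1-PSMB9 and COL4A1-COL4A2 overlapped by more than 1 kb. Around the canonical transcripts of these pairs there was 1 peak each at the mitochondrial chaperonin pair HSPD1-HSPE1 (716 bp), the antigen processing pair TAP1-PSMB9 (434 bp) and SURF1-SURF2 (248 bp), and none at COL4A1-COL4A2. Over all 883 pairs, 551 were also head to head within 1 kb by their canonical transcripts, and 512 further pairs of gene records overlapped by up to 1 kb.

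The 5 CpG-rich pairs without a peak and with the highest GC content in the window began with GPR143-SHROOM2 (79.8%) and THAP4-ATG4B (78.2%). BOP1-HSF1 (76.9%), TRPM5-KCNQ1 (76.4%) and NKAIN4-ARFGAP1 (76.1%) followed. BOP1 acts in ribosome assembly and HSF1 is the main activator of the heat shock response. At the wide end, GTPBP2-MAD2L1BP had a peak of 3326 bp (chr6:43596325-43599650), the widest of all pairs without a histone gene.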

How the data were processed

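Per the study's methods, the authors used cutadapt 1.16 for trimming and BWA 0.7.15 for alignment to hg19, removed duplicates with Picard 2.14.0 and SAMtools 1.6, called peaks in each replicate with MACS2 2.1.1 against an input at a q-value of 0.05, and kept with bedtools 2.26.0 the regions found in 2 of 3 replicates. The deposited list gives start and end positions only. Gene records and canonical transcripts came from GENCODE 44 mapped to the same build. Overlap meant at least 1 shared base. Shares had Wilson intervals, and groups were compared by Mantel-Haenszel odds ratios with Robins-Breslow-Greenland intervals at 95% within GC classes of 2 percentage points, or at 99.5% for the 10 motifs. The procedures were tested on simulated data. Named pairs were textbook pairs, the 5 pairs with the widest peaks and the 5 CpG-rich pairs of highest GC content without a peak. Extremes of each gene group and the pairs next to the 1 kb limit were also named. TCP1-MRPL18, TAX1BP3-EMC6, H2AC14-H2BC14, FAU-MRPL49 and RPL36AL-MGAT2 were named after their values were seen. So were the repeated genes MRPL47 and MRPL32. Some pairs that this rule takes are not reported here. The members and lists were chosen with earlier results of these data known. Python 3.11.15, numpy 2.4.6 and scipy 1.17.1 were used.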

Additional observations from a re-analysis of the deposited data

How the results depend on the processing

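No paired analysis was possible because the processed region list used here merges all 3 replicates and gives no value for any single library, and for the same reason no replicate could be left out. The odds ratio for a peak at pairs stayed above 1 with an interval clear of 1 under 16 other settings, from 2.72 with overlapping pairs added to 4.51 with no CpG or GC minimum, and under 3 added after seeing the data, the lowest 1.96 against promoters with a non-coding partner. The odds ratio for a widest peak of at least 1 kb had an interval around 1 under 20 of 21 other settings (0.818 to 1.07); against promoters with a non-coding partner, chosen after seeing the data, it was 0.644 and past the threshold. The G4 odds ratio ranged from 0.631 to 0.723 under 7 other settings, 2 of them added after seeing the data, and that for distance from 1.08 to 1.24 under 2. Merging peaks at most 500 bp apart cannot change whether a window holds one, and is not counted for peak presence or distance. With windows of 250 bp on each side, 3 of the 10 motifs differed between pairs and one-way promoters, in place of 5. Within pairs the number of motifs that separated windows with and without a peak went from 1 to 0 with GC classes of 5 percentage points, with peaks of at least 200 bp and, added after seeing the data, with 1 pair per locus or with named genes only; the NF-Y odds ratio stayed between 0.510 and 0.539 there, beside 0.511, and its upper limits passed 1. The quotient of motif odds ratios was past the threshold for 2 motifs, YY1 and NF-Y, and for 1, YY1, with peaks of at least 200 bp or with named genes only, and for 3, ETS included, with GC classes of 5 percentage points. The causes were not tested. The list gives no reads per region, so a weak peak missed by the caller cannot be told apart from no peak.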
